A study of Homo sapiens with 21 samples.

Results

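In A375 melanoma cells that carried HA-tagged HOXD13, 29176 regions were bound by the tagged protein, and 2151 of them, or 7.37%, lay in chromatin that was acetylated but not open in A375-GFP cells. A member is a HOXD13-HA region on chromosomes 1 to 22 or X that shares at least 1 bp with an H3K27ac region of A375-GFP and none with an ATAC region of A375-GFP. The remaining HOXD13-HA regions were acetylated and open (4332, 14.8%), open without acetylation (5613, 19.2%) or neither (17080, 58.5%).

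The series compared human melanoma cell lines after silencing or overexpression of HOXD13 in 21 samples, of which 15 are used here through their region lists, and neither the 5 IgG libraries nor HA of A375-GFP were analysed here. A375-HOXD13-HA is the A375 line with tagged HOXD13, profiled for HA. A375-GFP, profiled for K27ac and by ATAC, gave the acetylation and the openness of the rule, so both states were read in cells without the tagged protein. In A375 there were also 1 K27ac library each of the hairpins shH2 and shH3 and 2 of shNTC, read as the non-targeting control; the labels name no target for the hairpins. SKMEL-147 was profiled by K27ac and ATAC, and 501mel and SKMEL-5 by K27ac, ATAC and CTCF, with 1 library each. Per the labels' protocols, cells were cultured for 72 h with or without 1 µg/ml doxycycline, which induced the hairpins or the overexpressed protein; which samples received it, and which libraries came from ChIP-seq or CUT&Tag, is not stated. In the 501mel ATAC list the regions are named with siNTC, which the label does not mention. The labels call every sample melanoma. A375-GFP had K27ac within 2 kb of an end of 3 of 6 melanocyte lineage genes (SOX10, MITF and PMEL) and of 4 of 6 undifferentiated melanoma genes (AXL, EGFR, NGFR and FOSL1). The same held for 2 of 3 keratinocyte markers, and for 1 of 3 each for fibroblasts, endothelium and T cells.

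HOXD13 is a homeodomain transcription factor of the posterior HOXD cluster that patterns the limb and genital bud, and it binds AT-rich sequence as other HOX13 proteins do. H3K27ac marks active enhancers and promoters, on the nucleosomes that flank a bound element. ATAC-seq reads where the Tn5 transposase can reach DNA, and an active enhancer usually has an accessible centre between acetylated nucleosomes. CTCF is a zinc-finger protein that holds chromatin loops and insulates domains. Each list reports only regions above the caller's threshold, so "not open" means that no ATAC region was called there and not that the DNA was closed.

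Few members lay at annotated gene starts. Of 35116 RefSeq promoter windows (300 bases, from 250 before to 50 after a gene start, GRCh38.p14), 468 held a HOXD13-HA region and 23, of 22 genes, held a member. The sequences of 5 of these windows are shown. They include every window of the 23 with a core marked below (DDR2, PTCH1, TCF4 and XDH), so such cores are more frequent in the sequences shown than in the 23. The ARID5B window holds none. Capitals mark CAATAAA, which on the other strand reads TTTATTG, and TTTACGA, whose other strand reads TCGTAAA; HOX13 proteins are known to prefer these cores. The windows are chr1:162630613-162630912 (+ strand, DDR2), chr9:95507378-95507677 (- strand, PTCH1), chr18:55510723-55511022 (- strand, TCF4), chr2:31414693-31414992 (- strand, XDH) and chr10:61901449-61901748 (+ strand, ARID5B), written from 5′ to 3′ on the strand of the gene.
DDR2: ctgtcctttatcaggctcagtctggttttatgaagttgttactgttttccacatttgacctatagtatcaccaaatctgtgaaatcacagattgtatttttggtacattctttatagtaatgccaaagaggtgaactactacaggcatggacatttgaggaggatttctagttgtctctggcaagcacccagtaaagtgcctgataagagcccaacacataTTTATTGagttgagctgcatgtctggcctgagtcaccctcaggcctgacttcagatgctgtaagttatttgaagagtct
PTCH1: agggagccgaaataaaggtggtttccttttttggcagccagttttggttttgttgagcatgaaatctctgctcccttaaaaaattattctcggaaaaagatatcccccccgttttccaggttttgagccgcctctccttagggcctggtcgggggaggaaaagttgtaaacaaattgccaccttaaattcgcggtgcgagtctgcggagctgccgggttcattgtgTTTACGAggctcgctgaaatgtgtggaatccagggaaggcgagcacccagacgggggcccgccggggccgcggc
TCF4: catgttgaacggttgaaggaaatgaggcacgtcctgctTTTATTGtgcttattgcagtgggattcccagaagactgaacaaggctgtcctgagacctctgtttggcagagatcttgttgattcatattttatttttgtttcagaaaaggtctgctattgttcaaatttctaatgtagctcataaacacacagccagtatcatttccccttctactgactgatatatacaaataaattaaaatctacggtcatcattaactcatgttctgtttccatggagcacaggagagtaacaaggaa
XDH: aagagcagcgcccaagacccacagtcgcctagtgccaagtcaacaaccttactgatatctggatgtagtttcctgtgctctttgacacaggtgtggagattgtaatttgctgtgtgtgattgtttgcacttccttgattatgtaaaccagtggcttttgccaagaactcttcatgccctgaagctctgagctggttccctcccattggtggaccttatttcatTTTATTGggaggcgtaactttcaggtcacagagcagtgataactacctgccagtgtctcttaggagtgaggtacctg
ARID5B: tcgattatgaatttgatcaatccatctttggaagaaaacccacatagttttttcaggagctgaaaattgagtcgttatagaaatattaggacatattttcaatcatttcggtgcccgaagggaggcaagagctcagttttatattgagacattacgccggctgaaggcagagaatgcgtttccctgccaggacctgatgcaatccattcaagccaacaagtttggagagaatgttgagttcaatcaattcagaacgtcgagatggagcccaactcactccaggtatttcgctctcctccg

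CAATAAA in either direction was in 3 of the 23 windows (DDR2, TCF4 and XDH), against 4.00% of all windows. TTTACGA was in 1 of the 23 (PTCH1), against 0.541% of all windows. The core lay inside the member at DDR2 (162630834 to 162630840, 29 bases before the gene start), at PTCH1 (95507445 to 95507451, 24 bases before) and at TCF4 (212 bases before), and outside it at XDH. The AP-1 letters TGANTCA were in 5 of the 23, against 7.71% of all windows, and TAATTA, a letter core of other homeodomain proteins, was in 1 (PDE4B), against 4.84%. The 23 windows had a median GC content of 44.3%, against 58.7% over all windows. These are matches of letters, and at ARID5B no match says only that the letters are not in that window.

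These genes differ in role and in chromatin state. DDR2 is a receptor tyrosine kinase for collagen, and the member at its start (HOXD13-HA fold 3.74) was in both shNTC lists, in neither hairpin list and acetylated in SKMEL-147 alone among the other lines. PTCH1, the Hedgehog receptor, had a member at an internal start (fold 3.04) that lay 82 bp from an ATAC region and was listed in both shNTC lists, in shH3 and as open in SKMEL-147. TCF4, a helix-loop-helix factor, had a member (fold 2.71) in both shNTC lists and shH3, and it was acetylated and open in SKMEL-147. XDH, the xanthine dehydrogenase that makes uric acid, had a member (fold 2.48) that recurred in 1 shNTC list only. ARID5B, a DNA-binding cofactor of histone demethylation, had the member with the strongest acetylation of these 5. Its K27ac region (fold 27.4, −log10 q 148) overlapped no ATAC region, the nearest was 590 bp away, and the place was acetylated in all 7 other K27ac lists, open in none and bound by CTCF in 501mel.

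Members were chosen by the called regions of the HOXD13-HA, K27ac and ATAC lists, and the values of those lists are given next as a description, with no test. Folds are the authors' fold enrichment of a summit over the caller's background. Members had a median HOXD13-HA fold of 3.85 (quartiles 3.21 and 4.87, range 2.12 to 19.8), against 3.63 for acetylated and open regions and 4.04 for regions that were neither. Their median −log10 q was 4.94, against 6.87 for acetylated and open regions and 4.66 for regions that were neither. Their median width was 297 bp, against 354 bp for acetylated and open regions and 281 bp for regions that were neither. Against the acetylated and open class, members had a higher median fold and a lower median −log10 q, and were narrower.

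The acetylation behind the members came from 2097 K27ac regions of A375-GFP, and 52 of these held 2 or more members. The K27ac region under a member had a median width of 683 bp, a median fold of 4.38 and a median −log10 q of 6.51. Under acetylated and open HOXD13-HA regions it was broader (1102 bp) and stronger (fold 5.26, −log10 q 11.8). Of the members, 992 (46.1%) lay wholly inside a K27ac region, 1672 had their summit in one, and 48 touched 2 or more. Overlap with ATAC is common but not general for this mark: 36.0% of all 139985 K27ac regions of A375-GFP overlapped an ATAC region. HOXD13-HA regions were in 1.81% of the K27ac regions without ATAC (1623 of 89567) and in 9.58% of those with ATAC (4829 of 50418).

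The rule's thresholds cut through a continuum. Members with a single shared base of K27ac lay near COL11A1, SORCS1 and C16orf95, and 55 members shared 20 bp or less. On the outside, a region near WWC2 missed a K27ac region by 1 bp and 1 near CDH2 by 2 bp, and 25 regions that were neither had one within 20 bp. Members directly next to an ATAC region included those at NDRG4 and CYB5A, and 38 members had one within 20 bp. Just outside, an acetylated region 70450 bp from MITF shared 2 bp with an ATAC region, others at TMEM59 and SLC71A1 shared 3 bp, and 35 shared 20 bp or less.

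"Not open" covered 2 different surroundings. The nearest ATAC region was a median 1501 bp away. It was within 100 bp for 141 members (6.56%), within 500 bp for 567 (26.4%), within 1000 bp for 873 (40.6%) and within 10000 bp for 1928 (89.6%). For 670 members (31.1%) the K27ac region itself overlapped an ATAC region elsewhere along its length. They are called shoulder members here for this overlap alone. Their distance to an ATAC region reached 5132 bp, and whether they belonged to the same element was not tested. For the other 1481 (68.9%) no part of the K27ac region was called open. The shoulder members sat in broad, strong K27ac regions (median 2360 bp, −log10 q 23.7) at a median 382.5 bp from the ATAC region. The K27ac regions with no ATAC were small and weak (median 457 bp, −log10 q 4.63), and their members were a median 2698 bp from an ATAC region.

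**Figure D1:**
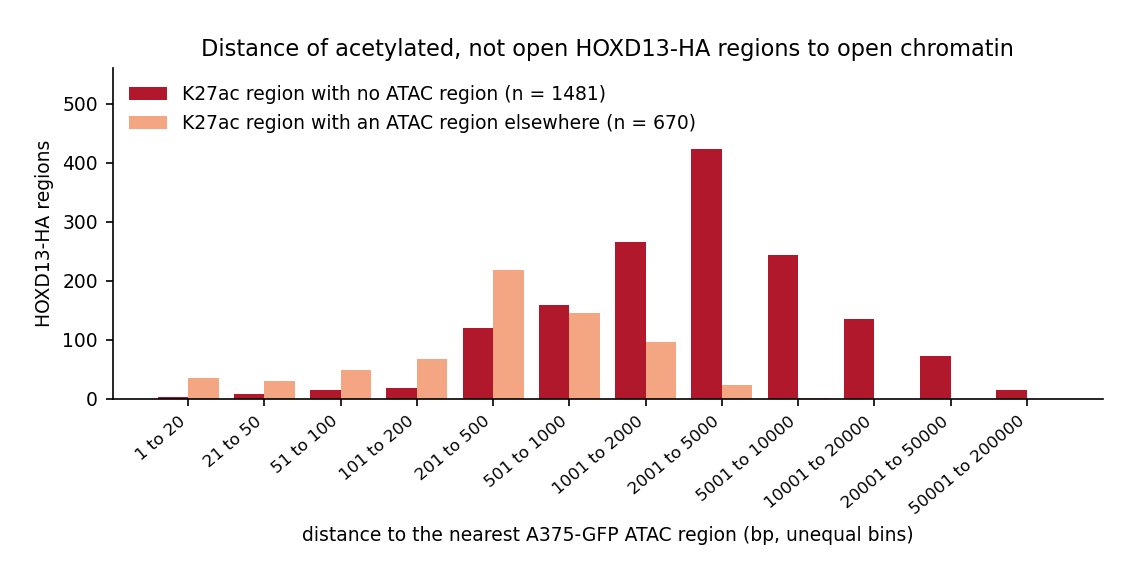
Number of members (vertical axis) by distance in bp to the nearest ATAC region of A375-GFP (horizontal axis, unequal bins), for the 1481 members whose K27ac region has no ATAC region (dark red) and the 670 whose K27ac region has one elsewhere (light red). The first kind is fullest at 2001 to 5000 bp (423 members) and the second at 201 to 500 bp (219 members).

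The members with the highest HOXD13-HA folds had weaker K27ac than those with the lowest. Of the 430 members with the lowest HOXD13-HA folds (2.12 to 3.12), 44.2% were shoulder members and the median K27ac −log10 q was 9.05. Of the 431 with the highest folds (5.29 to 19.8), 18.3% were shoulder members and the median K27ac −log10 q was 5.00. In the fold classes between these, the median was 6.73, 7.01 and 6.28 and the share of shoulder members 36.5, 30.3 and 26.5%. All these values belong to lists that the rule used, and none is tested.

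The acetylation of members was then read in A375 lists that the rule did not use. Differences are in percentage points with a 95% Newcombe interval, and a difference was called where the interval left out 0. The intervals cover counting error over regions, which were treated as independent; shNTC had 2 libraries and every other state 1. In both shNTC replicates K27ac was called at 53.1% of members and 86.3% of acetylated and open regions, a difference of -33.1 points (-35.5 to -30.8) that ran the same way on 23 of 23 chromosomes (24.9% over all HOXD13-HA regions). Of the members, 1271 (59.1%, Wilson interval 57.0 to 61.1) were in the list of replicate 1 and 1240 (57.6%, 55.5 to 59.7) in that of replicate 2. The shares were 89.6% and 88.6% for acetylated and open regions and 4.75% and 4.30% for regions that were neither.

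The label of acetylation thus held in part. In none of the 4 shNTC and hairpin lists were 735 members (34.2%), against 5.93% of acetylated and open regions and 68.1% of all HOXD13-HA regions. In all 4 were 394 members (18.3%), against 60.3% of acetylated and open regions and 12.7% of all. Shoulder members recurred more often: 79.3% were in both shNTC lists, against 41.3% of members whose K27ac region had no ATAC, and 13.4% against 43.6% were in none of the 4 lists. Recurrence also followed the strength of the acetylation in A375-GFP. In the weakest of 5 classes of K27ac −log10 q (below 3.97), 28.3% of members and 62.8% of acetylated and open regions were in both shNTC lists. The difference between members and acetylated and open regions was called in each of the 5 strength classes. From the weakest to the strongest class it was -34.5, -37.7, -25.4, -15.5 and -10.4 points. Against the same acetylated and open regions it was -7.01 points for shoulder members and -44.9 points for members whose K27ac region had no ATAC. The −log10 q is that of the K27ac region and not of the place of the member in it. Within a class, strength was not matched further.

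In the hairpin libraries members were listed less often than in shNTC. K27ac was called at 515 members (23.9%) with shH2 and at 667 (31.0%) with shH3, against 67.2% and 76.7% of acetylated and open regions and 15.7% and 19.6% of all HOXD13-HA regions. In both shNTC lists and in neither hairpin list were 440 members (20.5%), against 9.30% of acetylated and open regions, a difference of 11.2 points (9.27 to 13.1) on 23 of 23 chromosomes (6.21% over all HOXD13-HA regions). Among regions listed in both replicates, 38.5% of members (440 of 1143) and 10.8% of acetylated and open regions (403 of 3737) were in neither hairpin list, a difference of 27.7 points (24.7 to 30.7; 25.0% over all). The same share was 30.3% where HOXD13-HA regions were open without acetylation and 74.1% where they were neither. Among members in both shNTC lists, 42.6% were still listed with shH2 and 53.4% with shH3, whereas 89.9% of the members in replicate 1 were also in replicate 2.

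The hairpin lists were shorter than the shNTC lists, with 43634 and 51838 regions against 85977 and 80242, and the lists hold no read counts. With every list cut to the same number of regions by its −log10 q, the share in both shNTC lists and neither hairpin list was 13.2% of members, 7.69 points above acetylated and open regions (6.14 to 9.32). The part of list length and depth in the remaining difference was not tested. Absence from both hairpin lists was less frequent where K27ac was stronger. From the weakest to the strongest class, 63.3, 47.1, 45.4, 30.4 and 15.6% of members in both shNTC lists were in neither hairpin list. Of the acetylated and open regions it was 110 of 408 in the weakest class and then 21.7, 13.5, 4.52 and 1.12%, and the difference was called in each class (14.5 to 36.4 points).

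**Figure D2:**
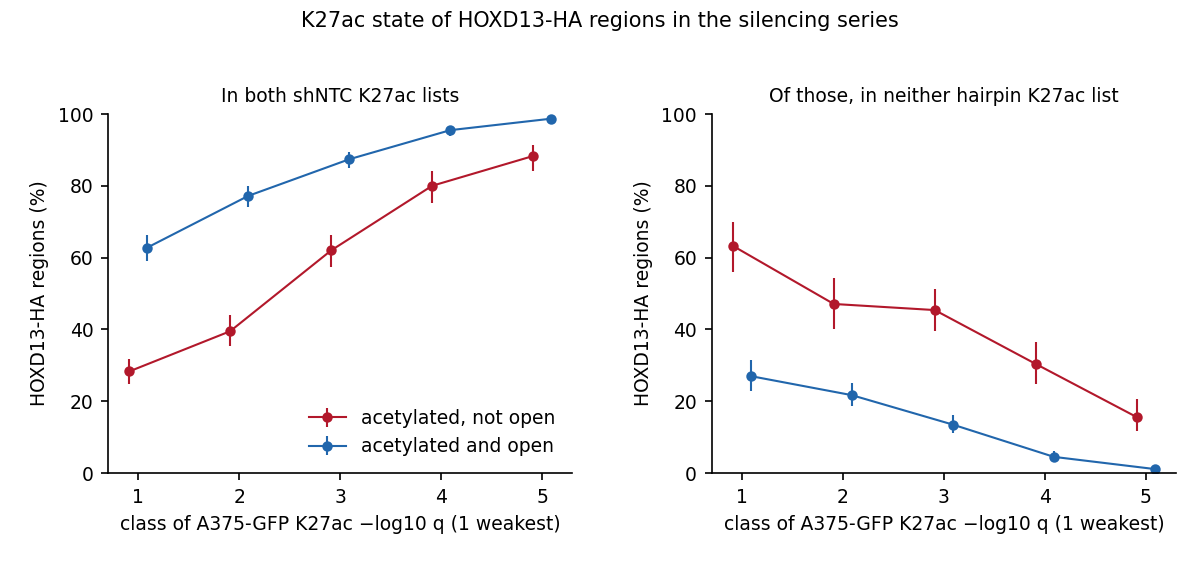
Share of HOXD13-HA regions (vertical axes, percent) by class of A375-GFP K27ac −log10 q (horizontal axes, 1 weakest to 5 strongest), for members (red) and acetylated and open regions (blue), with 95% Wilson intervals. Left, regions in both shNTC K27ac lists, where members lie below in each class (28.3% against 62.8% in class 1); right, the part of these in neither hairpin list, where members lie above (63.3%, 114 of 180, against 110 of 408 in class 1).

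Acetylated chromatin without an ATAC region was also compared with and without HOXD13-HA, a comparison chosen after the other values were seen. Of the K27ac regions of A375-GFP that overlapped no ATAC region, 1507 held a member and 87944 held no HOXD13-HA region. Those with a member were more often in both shNTC lists, 44.1% against 23.4%, a difference of 20.7 points (18.2 to 23.2; 23.8% over all K27ac regions without ATAC). Among those in both shNTC lists, however, 48.3% with a member and 64.4% with no HOXD13-HA region were in neither hairpin list, a difference of -16.1 points (-19.9 to -12.2; 63.8% over all). In both shNTC lists and neither hairpin list were 21.3% of the 1507 with a member and 15.1% of the 87944 with none. By that share the difference went the other way, at 6.23 points (4.22 to 8.38). K27ac regions with a member were wider (median 441 against 343 bp) and stronger (−log10 q 4.49 against 3.66), and width was not matched. Within 5 classes of K27ac −log10 q the difference among regions in both shNTC lists was negative in each. Its interval left out 0 in the 3 stronger classes (-21.3, -15.8 and -16.0 points) and did not in the 2 weaker ones (-9.41 and -4.79 points).

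The other melanoma lines were read next, as lists in which neither the tagged protein nor the A375 chromatin took part. K27ac was called at 703 members (32.7%) in SKMEL-147, 398 (18.5%) in 501mel and 400 (18.6%) in SKMEL-5. For acetylated and open regions the shares were 46.1%, 19.3% and 35.1%, and over all HOXD13-HA regions 16.0%, 7.06% and 10.7%. The difference from acetylated and open regions was -13.5 points in SKMEL-147 (-15.9 to -11.0) and -16.5 points in SKMEL-5 (-18.7 to -14.3). In 501mel the difference was -0.841 points (-2.83 to 1.21), and no difference was detectable. By class of K27ac strength in A375-GFP, the SKMEL-147 difference was called in the 3 weaker classes and not in class 4 (-3.17 points, -9.57 to 3.26) or class 5 (-2.28, -8.69 to 4.01). The SKMEL-5 difference was called in each class but class 4 (-4.49, -10.5 to 1.83), and 501mel was called higher at members in class 4 (6.98, 1.39 to 12.9). At least 1 of these lines was acetylated at 1003 members (46.6%), against 65.0% of acetylated and open regions and 24.1% of all, and all 3 were at 131 members (6.09%), against 8.89% of acetylated and open regions and 2.14% of all. The first of these shares was 66.6% for shoulder members, 1.54 points above acetylated and open regions (-2.38 to 5.29). It was 37.6% for members whose K27ac region had no ATAC. In strength class 4 the difference was not called (-5.16, -11.2 to 0.587).

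Openness in the other lines differed more. ATAC regions were called at 436 members (20.3%) in SKMEL-147, 148 (6.88%) in 501mel and 36 (1.67%) in SKMEL-5. For acetylated and open regions the shares were 75.1%, 41.3% and 30.6%, and over all HOXD13-HA regions 33.3%, 15.6% and 10.3%. Some other line was open at 24.6% of members, against 84.0% of acetylated and open regions, a difference of -59.3 points (-61.4 to -57.1; 37.9% over all). Members were closer to the HOXD13-HA regions that were neither open nor acetylated, of which 14.6% were open in another line, but were above them by 10.1 points (8.21 to 12.0).

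**Figure D3:**
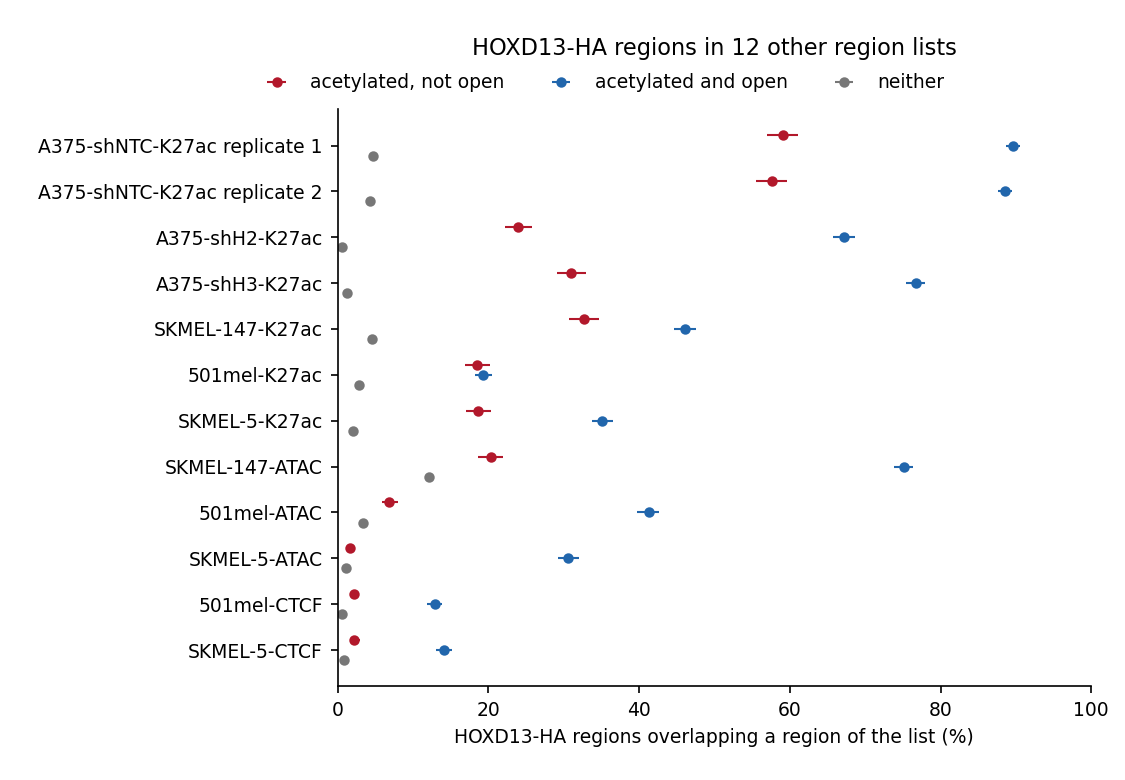
Share of HOXD13-HA regions (horizontal axis, percent, with 95% Wilson intervals) that overlap a region of each of 12 other lists (vertical axis), for members (red), acetylated and open regions (blue) and regions that were neither (grey). Members lie between the other classes in every list, and meet the acetylated and open class only in 501mel K27ac (18.5% against 19.3%).

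Most members that were acetylated in another line were not open in that line. Of the 703 members acetylated in SKMEL-147, 475 (67.6%) were not open there, against 7.65% of the acetylated and open regions that were acetylated in that line, a difference of 59.9 points (56.2 to 63.4). In 501mel it was 81.2% of 398 members, against 25.1%, a difference of 56.1 points (51.0 to 60.6). In SKMEL-5 it was 93.8% of 400 members, against 38.4%, a difference of 55.4 points (51.6 to 58.5). Regions that were neither in A375-GFP were also often not open where another line was acetylated. This held for 380 of 791 in SKMEL-147, 354 of 490 in 501mel and 273 of 348 in SKMEL-5. Over all K27ac regions of these lines, 49.9%, 67.1% and 48.8% overlapped no ATAC region of their line, and 64.0% in A375-GFP. These shares count whole K27ac regions, whereas the shares of members ask whether the HOXD13-HA region itself met an ATAC region. Among all HOXD13-HA regions acetylated in SKMEL-147, 501mel and SKMEL-5, 1050 of 4671, 946 of 2060 and 1429 of 3110 were not open there. As shares of a whole class, 22.1%, 15.0% and 17.4% of members were acetylated and not open in these lines. Over all HOXD13-HA regions these shares were 3.6%, 3.24% and 4.9%. A place that was acetylated in another line and open in none held 664 members (30.9%), against 4.80% of acetylated and open regions and 5.83% of all.

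**Figure D4:**
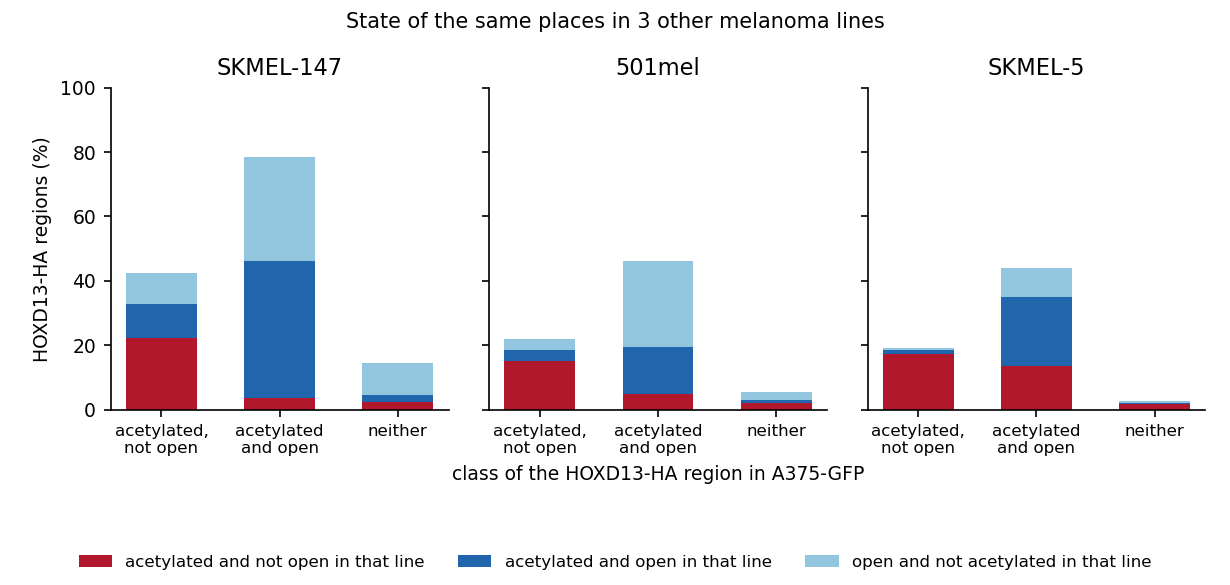
Share of HOXD13-HA regions (vertical axis, percent) by their state in SKMEL-147, 501mel and SKMEL-5 (panels), for members, acetylated and open regions and regions that were neither (horizontal axis); red is acetylated and not open, dark blue acetylated and open, light blue open and not acetylated in that line. Red is the largest part of the bar for members in each line (22.1%, 15.0% and 17.4%).

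CTCF was called at few members, less often than at acetylated and open regions and more often than at regions that were neither. It was called at 46 members (2.14%) in 501mel and 48 (2.23%) in SKMEL-5, against 4.85% and 5.22% of all HOXD13-HA regions, and at 73 (3.39%) in either, against 18.4% of acetylated and open regions (-15.0 points, -16.4 to -13.6; 6.84% over all). Of the regions that were neither, 1.09% were in either CTCF list, and members were above them by 2.3 points (1.6 to 3.17). Both lists held 21 members, against 3.24% of all HOXD13-HA regions. In none of the 12 lists beyond those of the rule were 464 members (21.6%), against 2.17% of acetylated and open regions and 50.1% of all.

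Members lay mostly inside genes. By their midpoint 1429 (66.4%) were in a protein-coding gene, against 53.5% of acetylated and open regions, a difference of 12.9 points (10.4 to 15.4) on 21 of 23 chromosomes (50.2% over all HOXD13-HA regions). The annotation used gives no exons, so introns and exons were not told apart. A gene end means either end of a gene, its start or its far end. Within 2 kb of a gene end were 221 members (10.3%) and 10.1% of acetylated and open regions, a difference of 0.163 points (-1.37 to 1.77; 5.51% over all), and this difference changed sign with the distance allowed. Shoulder members were more often near a gene end, 16.9% against 7.29% of members whose K27ac region had no ATAC. By chromosome, members made up 2.80% (X) to 12.9% (17) of the HOXD13-HA regions. In the MHC (chromosome 6, 28 to 34 Mb), where several A375 lists hold few regions, there were 3 members.

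Of the 10 members with the highest HOXD13-HA folds, SORBS2, TBC1D4 and OSMR were in both shNTC lists, and the K27ac regions under all 10 had a −log10 q of 2.41 (MPDZ) to 19.3 (QSER1). RPAIN, which encodes a nuclear import factor of replication protein A, held the top member (chr17:5424340-5425236, hg38, fold 19.8), and no other list contained it. KLC1, a kinesin light chain, followed with a fold of 18.6 and was found in 1 shNTC list only. A member 1531 bp from QSER1, a DNA-binding factor that opposes DNA methylation, had a fold of 18.4, lay in a K27ac region of 1315 bp that overlapped an ATAC region elsewhere, and was acetylated in SKMEL-147 and SKMEL-5 but in none of the shNTC or hairpin lists. Members in MPDZ, a scaffold of cell junctions (fold 18.4), and SORBS2, an actin adaptor (fold 15.8), lay in K27ac regions of 313 and 365 bp.

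A member 449 bp from SPAG9, a scaffold of JNK signalling, stood apart among these 10 with a fold of 15.7. It lay at the far end of the gene, 159143 bp from the listed start. This member was acetylated, open and bound by CTCF in both 501mel and SKMEL-5, and in none of the shNTC or hairpin lists. Members in CDK6, the D-cyclin kinase (fold 15.0), and SSH2, a cofilin phosphatase (fold 14.8), were in 1 shNTC list each. The widest member, of 2418 bp, lay 412522 bp from TBC1D4 (fold 14.5) and was in all 4 shNTC and hairpin lists. A member 18335 bp from OSMR, the oncostatin M receptor (fold 14.2), was in both shNTC lists, in neither hairpin list, and acetylated and open in SKMEL-147.

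Of the 10 members in the strongest acetylation, all but the one near MAT2A were in both shNTC lists, and their HOXD13-HA folds were 2.75 (CDKN1B) to 6.32 (TFAP2B). All 10 were shoulder members, so their K27ac regions were open elsewhere in A375-GFP, with the nearest ATAC region 230 bp (TFAP2B) to 5132 bp (ZBTB38) away. A member 98 bp from CDKN1B, an inhibitor of cyclin-dependent kinases, lay beyond the far end of the gene, 5099 bp from its listed start. This member was in a K27ac region of 11745 bp (fold 83.3, −log10 q 531), was acetylated in all 7 other K27ac lists and was open in no other line. A member in TFAP2B, an AP-2 factor, lay in 11386 bp of K27ac (fold 53.7) and was in both shNTC lists and in neither hairpin list. A member 206336 bp from CDKN2B, another such inhibitor, was in all 4 shNTC and hairpin lists. WWTR1, the YAP partner TAZ, held a member in a K27ac region of 36254 bp, the longest under any member. AHRR, the repressor of the aryl hydrocarbon receptor, MAT2A, which makes S-adenosylmethionine, ZBTB38, a reader of methylated DNA, and MEOX2, a homeobox factor of vascular and muscle tissue, were the nearest genes of others. Of these 10 members, 6 were in all 4 shNTC and hairpin lists, and ATAC was called at 1, near KIRREL3, in another line.

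**Figure D5:**
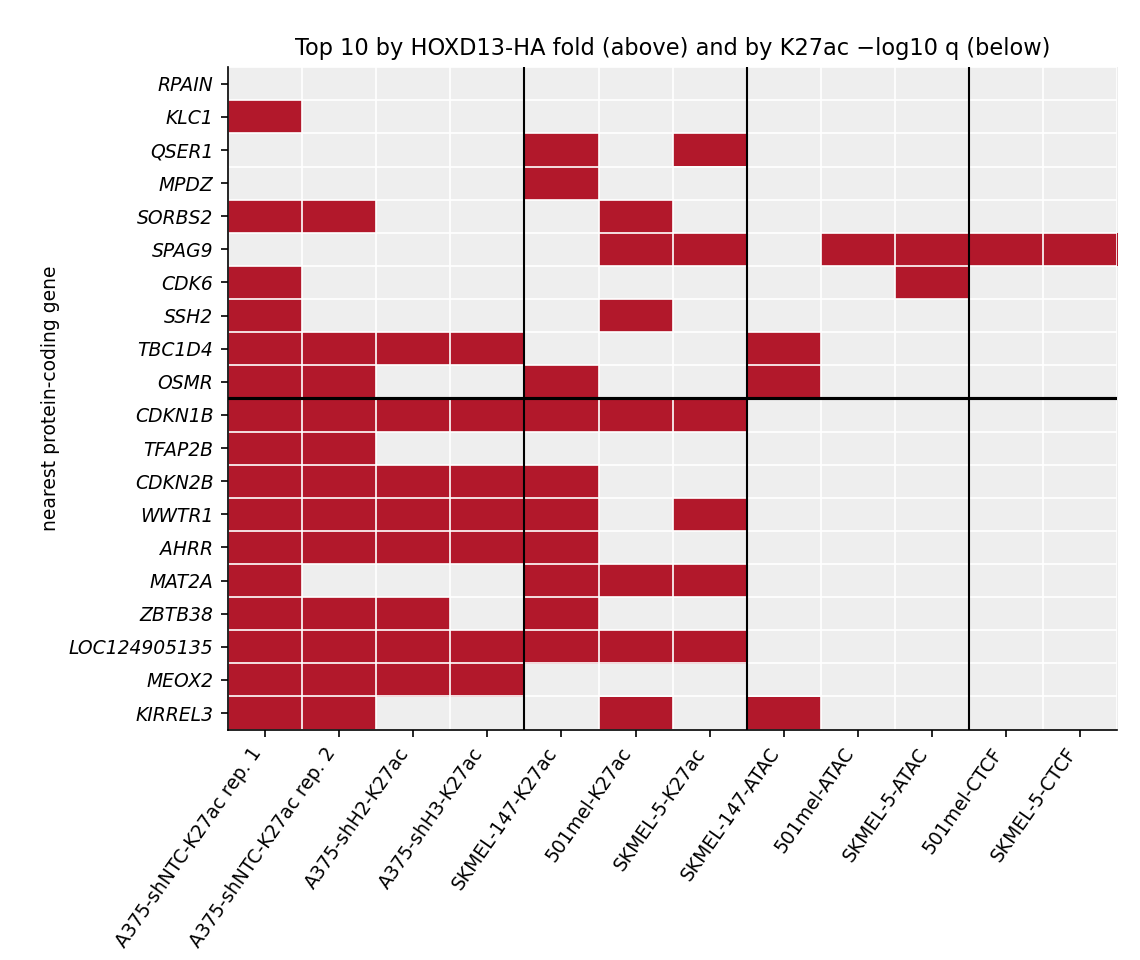
Presence (red) or absence (grey) in 12 other region lists (columns) of the 10 members with the highest HOXD13-HA fold (upper rows) and the 10 with the highest −log10 q of their K27ac region (lower rows), named by the nearest protein-coding gene. The upper rows are mostly grey, with RPAIN in no list. The lower rows are red in the shNTC columns except for MAT2A in replicate 2, and vary in the other K27ac columns, from CDKN1B in all 7 K27ac lists shown to TFAP2B in 2.

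Some members kept 1 state across lists. In every A375 K27ac list and in no ATAC list were 260 of 2151 members, led by regions 300214 bp from TNP1 (fold 12.4) and 163874 bp from MSRB3 (fold 11.6). The share of other HOXD13-HA regions with this combination was not counted. Of its parts, all 4 shNTC and hairpin lists held 18.3% of members, 60.3% of acetylated and open regions and 12.7% of all. Open in no other line were 75.4% of members, 16.0% of acetylated and open regions and 62.1% of all. In every K27ac list of every line and in no ATAC list were 41 members, and for this combination too the share of other HOXD13-HA regions was not counted. Among them were the regions of MSRB3, ELF1, an ETS factor, ARID5B, EPS8, an actin regulator downstream of the EGF receptor, and ZMYND8, a reader of acetylated histones. Those of MSRB3, ELF1, EPS8 and ZMYND8 were shoulder members, 324, 348, 237 and 249 bp from an A375-GFP ATAC region. Of these named regions only that of ARID5B lay in a K27ac region with no ATAC. Of the members in both shNTC lists and neither hairpin list, those with the highest folds lay at SORBS2, OSMR, IL10RB, a chain of the interleukin-10 receptor (fold 11.9), and HRH1, the histamine H1 receptor (fold 10.1).

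Members open in all 3 other lines numbered 6 (0.279%), against 21.7% of acetylated and open regions and 6.96% of all HOXD13-HA regions, and included CAPZA1, an actin capping subunit (fold 7.71), IFT81, of the cilium (fold 5.12), TRIO, a guanine nucleotide exchange factor (fold 4.64), and a region 179560 bp from MYLIP (fold 3.67). All 4 were in both shNTC lists although no ATAC region was called there in A375-GFP, and the nearest was 2343 bp away or farther. In both CTCF lists, after SPAG9, came members at VTI1A (fold 7.40), ADAR, the RNA-editing deaminase (fold 7.14), and MARCHF6 (fold 6.61), and one 33620 bp from WNT7B (fold 5.57). The ADAR member was in all 7 other K27ac lists and open in 501mel and SKMEL-5.

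Near gene ends the highest folds after QSER1 and SPAG9 were at MAPK6, an atypical MAP kinase (fold 10.6), PSME4, a proteasome activator (fold 10.4), and HOXC11 (fold 10.2). ACOX2 (fold 9.41), HNRNPR (fold 8.72), CDK2AP1 (fold 8.64), POLR2G (fold 7.98) and ORAI2 (fold 7.88) followed. Of these 8, PSME4, HNRNPR, CDK2AP1 and ORAI2 were in both shNTC lists, and of those 4 only PSME4 was also in a hairpin list. The members at MAPK6, PSME4 and HNRNPR were near the far end of the gene, 48068, 108267 and 40244 bp from its listed start.

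Within 50 kb of a gene body, 2529 of 19974 protein-coding genes (12.7%) had a member, and 12027 (60.2%) had any HOXD13-HA region. Most had 1 member (1961 genes), 405 had 2 and 5 had 6 or 7. The following genes are named for their number of members, after the values were seen, and all are long, so their counts cannot be compared with those of short genes. TEAD1, the DNA-binding partner of YAP and TAZ, had 7 members inside its 270317 bp, with folds of 3.71 to 6.19; 5 were in both shNTC lists, 2 of these in neither hairpin list, and 5 were acetylated in another line. DDR2 had 7 members within 50 kb (6 inside its 156543 bp). The strongest (fold 10.5) lay in a K27ac region of −log10 q 69.5 and was in both shNTC lists and shH2 but in no list of another line, and 4 of the 7 were in both shNTC lists. RASSF8, a RAS-association domain protein of cell junctions, had 7 (6 inside), 5 of them in both shNTC lists. DST, a linker of the cytoskeleton to hemidesmosomes, had 6 inside its 496835 bp, of which 4 were open in another line. ARID5B had 6, and all 6 were acetylated in another line.

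Single K27ac regions could hold several members. In TCF7L2, the WNT effector, 4 members (folds 2.92 to 4.06) lay in 1 K27ac region of 8601 bp, all of them in both shNTC lists and shH3. MEOX2, KIRREL3 and AGMO each had a K27ac region with 2 members, and so did the stretch over HOXB2.

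Members near HOX genes came in few places. Of 39 HOX cluster genes, 29 (74.4%; 12.7% of all protein-coding genes) had a member within 50 kb, but neighbouring genes shared only 10 distinct members, and all 39 had some HOXD13-HA region. In the HOXA cluster, HOXA3 held 1 member (fold 5.29) in both shNTC lists and shH3, 10 HOXA genes lay within 50 kb of it, and CTCF was called there in 501mel. In the HOXB cluster, 2 members of −log10 q 163 acetylation lay on either side of HOXB2, 1 lay inside HOXB3 (fold 6.18, in all 4 shNTC and hairpin lists), 1 was 149 bp beyond it (fold 4.45) and 1 was 45129 bp from HOXB13 (fold 5.65). In the HOXC cluster, a member of 1979 bp lay 1344 bp from HOXC11 (fold 10.2, −log10 q 25.1) in a K27ac region of 214 bp and was in no other list. A member 953 bp from HOXC9 (fold 5.56) was in both shNTC lists and shH3, acetylated in SKMEL-5 and open in SKMEL-147. No HOXD gene had a member within 50 kb.

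Genes of MAPK feedback and output had members near 8 of 17 (47.1%), against 12.7% of all protein-coding genes. For this and each gene list that follows, gene length and acetylation were not matched to the background, and the part of both in the shares was not tested. ETV4, an ETS factor induced by ERK, had a member 10382 bp away (fold 7.26) in both shNTC lists and neither hairpin list. The same state held for SPRY4, the Sprouty inhibitor of receptor tyrosine kinases (fold 4.95, 11320 bp away), and for 1 of 2 members inside ETV1 (fold 2.84). SPRED1, an inhibitor of RAS activation, had a member 34393 bp away (fold 3.40) in both shNTC lists and shH3. SPRED2, its relative, had a member inside the gene (fold 4.23) that was acetylated in 501mel. EPHA2, an ephrin receptor, held a member (fold 5.41) found in no other list.

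Actin and adhesion genes had members near 6 of 16 (37.5%), and collagens and matrix genes near 5 of 20 (25.0%), against 12.7% of all protein-coding genes. CD44, the hyaluronan receptor, held 2 members (folds 5.87 and 4.74) that were in all 4 shNTC and hairpin lists and acetylated in SKMEL-147 and SKMEL-5. LAMC1, a laminin chain of basement membranes, had 4 members, all in both shNTC lists, and 1 of them in neither hairpin list. COL4A2, a collagen of basement membranes, held a member (fold 7.45) that was acetylated and open in 501mel and in no shNTC or hairpin list.

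Angiogenesis genes, which the study's title names, had members near 6 of 26 (23.1%), and genes of endothelial cells near 3 of 12 (25.0%), against 12.7% of all protein-coding genes. VEGFC, the lymphatic growth factor, held 2 members (folds 3.89 and 3.76) in both shNTC lists; the first was in neither hairpin list and the second was acetylated and open in SKMEL-147. NRP1, a coreceptor of VEGF and semaphorins, held a member (fold 4.27) in all 4 shNTC and hairpin lists. TIE1, an endothelial receptor, held a member (fold 7.84) found in no other list, and HIF1A, the hypoxia factor, held 1 inside (fold 3.37). Semaphorins and plexins had members near 3 of 14 (21.4%; 12.7% of all protein-coding genes). SEMA3A, a secreted guidance cue, held 4 (folds 3.29 to 4.59), of which 3 were in both shNTC lists and 1 of these was in neither hairpin list.

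In the adenosine pathway 3 of 15 genes (20.0%) had a member, against 12.7% of all protein-coding genes. NT5E, the CD73 enzyme that makes adenosine outside the cell, held 1 (fold 3.56), in all 4 shNTC and hairpin lists and acetylated and open in SKMEL-147. ADORA1, an adenosine receptor, had 1 member 9627 bp away (fold 6.35). No antigen presentation gene of 19 had a member within 50 kb, and 4 had any HOXD13-HA region; many of these genes lie in the MHC. Checkpoints and suppressive cytokines had 1 of 15 (6.67%, CD276) and chemokines and inflammatory cytokines 3 of 18 (16.7%, CXCL8, CXCL2 and IL1B), beside 12.7% of all protein-coding genes.

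Melanocytic genes had members near 3 of 20 (15.0%), a share near the 12.7% over all protein-coding genes. MITF, the master regulator of melanocytes, held 1 (fold 4.09) that was in no shNTC list but in shH3, SKMEL-147 and 501mel K27ac. SOX10, its upstream factor, had 1 member 10981 bp away (fold 2.80) in both shNTC lists and neither hairpin list. Undifferentiated and invasive genes had 5 of 25 (20.0%; 12.7% of all protein-coding genes), which besides TEAD1 and WWTR1 included WNT5A, a noncanonical WNT ligand whose member (fold 5.17) was in both hairpin lists and in no shNTC list. Limb and skeletal patterning genes had 3 of 33 (9.09%, TBX3, PTCH1 and PRRX1), near the same 12.7%. Genes of keratinocytes and fibroblasts had 1 of 12 each (8.33%), those of T cells 2 of 12 (16.7%) and housekeeping genes 2 of 15 (13.3%).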

How the data were processed

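The genome was hg38 and the tools were MACS2, Bowtie2, deepTools, SAMtools and Trim Galore, per the submitters' processing notes. Versions, settings and control libraries are not given in the sources used here. Each deposited region list gives a score, the summit's fold enrichment (a ratio) over local background, and −log10 p and −log10 q, all made by the authors and used only to describe, rank or filter regions within a list. Each library has its own list, and no list was pooled. The lists hold no counts, so depth is unknown. The A375-GFP ATAC, shNTC and hairpin lists also held regions on alternative sequence copies (374 to 2747), and the HOXD13-HA and A375-GFP K27ac lists held none, so alignment or filtering differed between libraries.

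Regions on chromosomes 1 to 22 and X were intersected in Python 3.11.15 (pandas 2.3.3, NumPy 2.4.6) at a minimum overlap of 1 bp, and the code was tested on simulated data. Wilson intervals for shares and Newcombe intervals for differences are at 95%, cover counting error only and treat regions as independent. shNTC had 2 libraries and every other state 1, no test over samples was run, and no p-value was computed. Genes and promoter sequences are RefSeq's (GRCh38.p14), and distances run from the midpoint of a region to the nearer gene end. No genome sequence was used, so the planned motif counts at summits were not run. Named members were the 10 with the highest HOXD13-HA fold, the 10 with the strongest K27ac region, the 10 near a gene end with the highest fold, 5 each for 4 combinations of lists, the 5 K27ac regions with most members and up to 4 genes of each of 18 lists; members and genes beyond that rule were chosen after their values were seen. Members and gene lists were chosen with earlier results of these data known, so no list gives independent support. Members on chromosome 8 were counted and are not described singly, and its promoter windows were left out. Some genes that the naming rule picked are not reported here.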

Additional observations from a re-analysis of the deposited data

Results flagged for a closer look

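The difference in K27ac between members and acetylated and open HOXD13-HA regions was not the same in the other lines, and these values are given because the differences between lines were themselves compared. It was -13.5 points in SKMEL-147, -0.841 points in 501mel and -16.5 points in SKMEL-5. Between SKMEL-147 and 501mel it differed by -12.6 points (95% interval -15.6 to -9.62), between SKMEL-147 and SKMEL-5 by 3.05 points (0.0778 to 6.03), and between 501mel and SKMEL-5 by 15.7 points (13.5 to 17.9). Only the second of these came close to 0.

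The difference in openness also varied by line, from -54.8 points in SKMEL-147 through -34.4 points in 501mel to -28.9 points in SKMEL-5. Between SKMEL-147 and 501mel it differed by -20.4 points (-23.1 to -17.8), between SKMEL-147 and SKMEL-5 by -25.9 points (-28.4 to -23.4), and between 501mel and SKMEL-5 by -5.46 points (-7.16 to -3.75). The ATAC lists held 163102 regions in SKMEL-147, 104442 in 501mel and 56333 in SKMEL-5, in the same order as these differences. With each ATAC list cut to 56333 regions the differences were -43.5, -26.2 and -28.9 points, so 501mel and SKMEL-5 changed places. The intervals treat the regions of each line as separate samples although the same HOXD13-HA regions were read in each. In SKMEL-147, 501mel and SKMEL-5, 20.3, 6.88 and 1.67% of members were open. For acetylated and open regions it was 75.1, 41.3 and 30.6%, and a difference in points cannot exceed these shares. The smallest difference, in SKMEL-5, thus went with the smallest share of open members (36 members).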

How the results depend on the processing

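Of 107 alternatives, 86 kept the direction and call, or lay within 1.5 times a count or within counting error of a share. Differences are members minus acetylated and open regions, in points. Members numbered 450 with HOXD13-HA at a −log10 q of at least 10, 749 with K27ac at that level, 171 with all lists at it and 1278 with no ATAC region within 1000 bp. The share of shoulder members was 21.3% with HOXD13-HA at a −log10 q of at least 10, 49.7% with all lists at it, 9.55% with no ATAC within 1000 bp, 37.2% with 50% of the region covered by K27ac and 44.1% by summit. The difference near gene ends was 0.163 points and turned to -0.508 with 50% covered, -3.85 with no ATAC within 1000 bp, -1.77 for ends within 1 kb and -1.50 for gene starts, and was called at 4.73 for ends within 5 kb. The share in both shNTC lists and neither hairpin list was not called apart in the 2 weakest K27ac classes (1.00 and 1.88). Acetylation in another line was not called apart in class 4 (-5.16) and turned to 1.54 for shoulder members. Genes with a member numbered 1440 within 10 kb, 3924 within 100 kb and 722 with HOXD13-HA at a −log10 q of at least 10. Leaving out either shNTC replicate gave -30.9 to -30.5 for presence in shNTC and 13.8 to 14.8 for absence from both hairpins. The cause of these changes was not tested beyond what each alternative removes. Strength classes for openness, other-line acetylation and CTCF, host types and equal list lengths were chosen after seeing the data. No paired analysis was possible because only shNTC has numbered replicates. The lists hold no counts, so a missing region can be a matter of depth.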

Other observations

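K27ac regions of A375-GFP without an ATAC region were more often acetylated and more often open in another line where they held a member. Of the 1507 with a member, 40.7% were acetylated in another line, against 25.8% of the 87944 with no HOXD13-HA region, a difference of 14.9 points (12.4 to 17.4; 26.1% over all K27ac regions without ATAC). They were open in another line in 27.1%, against 10.0%, a difference of 17.0 points (14.8 to 19.3; 10.3% over all). Within 5 classes of K27ac −log10 q, openness in another line differed by 14.9 to 17.9 points. K27ac regions with a member were also wider (median 441 against 343 bp). Width was not matched, and its part in these shares was not tested.

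Members with a high HOXD13-HA fold were more often open elsewhere than members with a low one. From the lowest to the highest of 5 fold classes, 22.1, 20.9, 19.8, 26.7 and 33.6% of members were open in another line, and 66.7, 48.6, 54.8, 50.6 and 45.0% were in both shNTC K27ac lists. The median −log10 q of their A375-GFP K27ac region was 9.05, 6.73, 7.01, 6.28 and 5.00 in the same order. The part of K27ac strength in these shares was not tested.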
